A study of Mus musculus with 2 samples.

Results

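Malat1, Neat1, Gas5, Snhg1, Snhg3, Snhg11 and Snhg12 are 7 long RNAs that are not known to act through a protein product. Malat1 and Neat1 stay in the nucleus, and the other 5 are host genes whose introns carry small nucleolar RNAs (snoRNAs). The 7 genes were chosen by name from the array with their differences between these 2 arrays already known, so every difference of theirs is given as a description, with no test. Every non-control probe that carries a member's gene name was taken. This gave 11 probes of 55681, for 7 of the 25851 genes with at least 1 detected probe. Malat1, Neat1, Snhg1 and Snhg3 had 1 probe each, Snhg11 and Snhg12 had 2, and Gas5 had 3.

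RNA was measured on 2 one-colour microarrays, 1 per group, both with RNA derived from the mouse line E14Tg2A, embryonic stem (ES) cells of strain 129/Ola kept in serum and LIF. EpiSC, epiblast stem cells, were derived directly from ES cells in chemically defined minimal medium holding FGF2 at 12 ng/mL and Activin A at 20 ng/mL. ELA-EpiSC were derived with the same factors and doses from Epiblast-Like Aggregates (ELA), the floating clusters that form once serum and LIF are withdrawn. Each RNA pooled 3 separate experiments on 1 cell line, so no group has a replicate and no p-value is given. One label speaks against the others: the source given for the EpiSC RNA is an Argonaute immunoprecipitate of cells at 0 days in vitro, and that for the ELA-EpiSC RNA is total RNA at 0 days. Titles, descriptions and molecule fields give total RNA of EpiSC and of ELA-EpiSC, and the groups follow the titles. No value below settles that conflict. In RNA from whole cultures, fewer cells of a type and less RNA per cell cannot be told apart.

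Neat1 is the scaffold of paraspeckles, nuclear bodies that hold RNA-binding proteins such as Nono, Sfpq and Pspc1. It is made as a short form and a long form that start at the same site, and the long form is the one needed to build the body. Malat1, encoded beside Neat1, gathers at nuclear speckles, the stores of splicing factors, and its mature end is cut by RNase P rather than carrying an ordinary poly(A) tail. In snoRNA host genes the snoRNAs are released from spliced introns and guide 2′-O-methylation (box C/D) or pseudouridylation (box H/ACA) of ribosomal and other RNAs. The joined exons of such hosts are often degraded by nonsense-mediated decay, the pathway that removes RNAs with early stop codons, so the level of the spliced RNA is not a measure of the snoRNAs. Gas5 was named for its accumulation in growth-arrested cells, and its RNA, like that of Snhg1, begins with a run of pyrimidines shared with ribosomal protein genes.

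The probes are shown because each reads only 60 bases of its RNA, and probes of 1 RNA gave different values. Sequences are from the array files, written 5′ to 3′, with coordinates of the mm9 assembly. The Malat1 probe (chr19:5795713-5795772, minus strand) was printed on the array under another name as well, NEAT2, with all 60 bases the same. Capitals mark the bases shared between the probes of either name.
Malat1 and NEAT2: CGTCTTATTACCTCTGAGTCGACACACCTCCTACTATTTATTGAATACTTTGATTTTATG
The Neat1 probe (chr19:5842564-5842623, minus strand) shares 30 bases with each of a pair of neighbouring probes named NEAT1, at chr19:5842594-5842653 and chr19:5842534-5842593. Capitals in these mark the shared bases.
Neat1: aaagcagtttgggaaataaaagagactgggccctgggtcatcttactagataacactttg
NEAT1, overlapping its first bases: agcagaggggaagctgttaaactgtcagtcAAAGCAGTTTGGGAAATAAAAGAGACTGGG
NEAT1, overlapping its last bases: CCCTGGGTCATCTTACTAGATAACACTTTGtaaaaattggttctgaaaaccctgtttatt
The 3 Gas5 probes all lie on the plus strand of chromosome 1 and are shown because they disagreed. They begin at bases 1072, 2053 and 2493 of the transcript used for the array design, at chr1:162966369-162966428, chr1:162967350-162967409 and chr1:162968608-162968667.
Gas5, from base 1072: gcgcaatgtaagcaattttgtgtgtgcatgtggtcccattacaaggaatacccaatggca
Gas5, from base 2053: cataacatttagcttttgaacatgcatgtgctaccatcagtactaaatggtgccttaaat
Gas5, from base 2493: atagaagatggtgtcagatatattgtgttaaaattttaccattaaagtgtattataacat
Snhg1 and Snhg12 are host genes whose values rest on a single probe each. Snhg1 was read at chr19:8798913-8798972 (plus strand) and Snhg12 at chr4:131866864-131866922 (plus strand).
Snhg1: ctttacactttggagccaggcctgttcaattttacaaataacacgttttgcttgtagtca
Snhg12: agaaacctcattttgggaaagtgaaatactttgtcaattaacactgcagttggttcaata

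Levels are log2 of normalized spot intensity, and a difference is log2 ELA-EpiSC minus EpiSC. A gene counted as past 1 where its difference was at least 1 in size and its mean level over both arrays at least 7.5. Over the 16649 genes at that level the median difference was 0.0014 with an SD of 0.65 across genes. Of these genes, 4.54% were past 1 higher in ELA-EpiSC and 4.46% were past 1 higher in EpiSC, 9.0% in all. All 7 members had this mean level and were well above background on both arrays, and none of their spots was saturated or marked as an outlier. Each probe had 1 spot per array. Over 234 other probes at this level with 10 spots each, the SD of a difference between the arrays was 0.10. That figure holds the noise between spots only, not that of labelling or of culture.

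Of the 7 genes, 2 were past 1 higher in ELA-EpiSC (Neat1 and Snhg1) and 1 was past 1 higher in EpiSC (Snhg3). The other 4 were within 1. The median of the 7 was 0.04. Because the genes were chosen with these values known, nothing is read from these counts against the 4.54% and 4.46% of all genes.

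**Figure D1:**
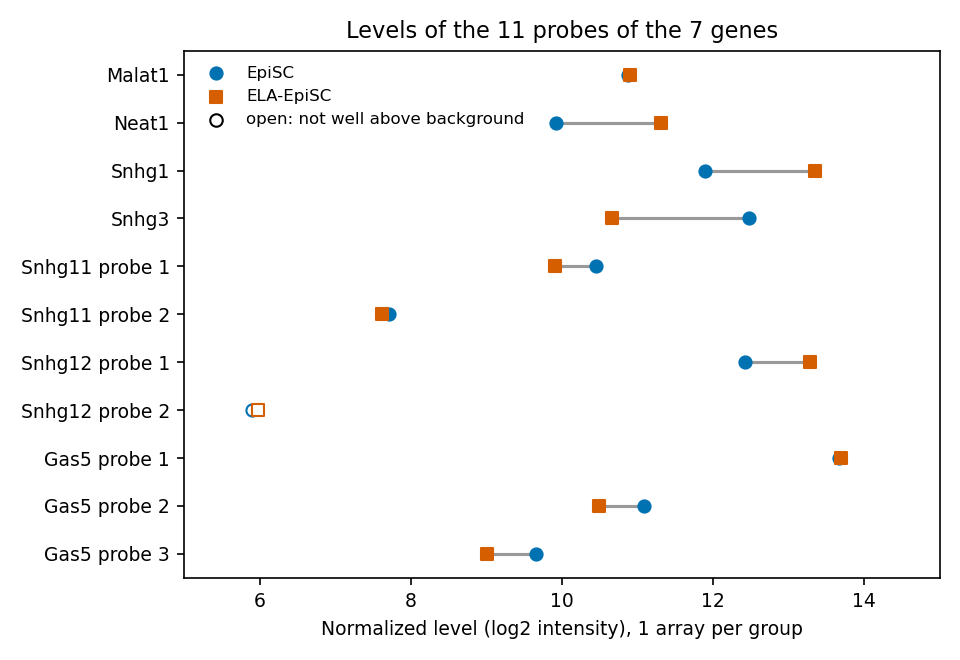
Normalized level (log2 intensity) of the 11 probes of the 7 genes, with circles for EpiSC and squares for ELA-EpiSC, 1 array each; open symbols are not well above background. Neat1 and Snhg1 lie higher in ELA-EpiSC, Snhg3 lies higher in EpiSC, and the Gas5 probes do not move together.

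Neat1 was brighter in ELA-EpiSC. Its spot read a mean signal of 841 (SD 122 over 42 pixels) on the EpiSC array and 2758 (SD 370 over 43 pixels) on the ELA-EpiSC array, against a local background of 24 on both. After normalization its level went from 9.92 in EpiSC to 11.31 in ELA-EpiSC. This is a difference of 1.39, or 2.62-fold, and 404 of all genes had a larger difference in the same direction.

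The array holds 5 further probes of this RNA under the name NEAT1, which the choice by gene name did not use. In the array files their interval is chr19:5842306-5845476 on the reverse strand, 3171 bases long, and the probes lie 2.66 to 2.91 kb from its 5′ end. Their differences were 1.36, 1.39, 1.49, 1.55 and 1.58, with levels from 9.24 to 9.90 in EpiSC and from 10.73 to 11.48 in ELA-EpiSC. All 6 probes in this stretch, the Neat1 probe included, were past 1 in the same direction with a median of 1.44. They are repeat measurements of the same 2 RNA pools, and the probes next to each other share bases.

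Farther along the same strand, 3 probes named only by a genomic interval lie 10.59 to 10.90 kb from that 5′ end. RefSeq gives the whole Neat1 gene a length of 20773 bases (assembly GRCm38.p6, used for the length alone), a length that reaches past these probes. They were dim, with levels from 7.20 to 7.77 in EpiSC and from 7.14 to 7.90 in ELA-EpiSC. Their differences were -0.13, -0.06 and 0.13, so the difference of the first stretch was not seen there. The share of the short and the long form behind either stretch was not tested. On the opposite strand, 12 interval probes lie between 0.01 and 3.02 kb from that 5′ end, and they differed by -0.21 to 0.65, none past 1.

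Malat1 differed little at its own probe and more at others along the RNA. Its spot read 1653 (SD 318 over 46 pixels) in EpiSC and 2078 (SD 376 over 48 pixels) in ELA-EpiSC. The normalized level was 10.87 in EpiSC against 10.90 in ELA-EpiSC, and the difference of 0.03 is within the spot SD of 0.10. The NEAT2 probe with the identical sequence read 10.96 and 11.14, a difference of 0.17. The readings of this 1 sequence were thus 0.15 apart in their differences, each of which carries the spot SD of 0.10.

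Counting every detected same-strand probe in the 6983 bases of the interval, 11 probes read Malat1. All 11 read higher in ELA-EpiSC, by 0.03 to 0.78 with a median of 0.40, and none was past 1. The lowest differences, 0.03 and 0.05, were within the spot SD. As for Neat1, these probes are repeat measurements of the same 2 RNA pools, and some at the 3′ end share bases. The sign of all 11 was the same in the 11 other ways of normalizing. The 3 probes nearest the 5′ end, 0.37 to 0.51 kb from it, differed by 0.72, 0.69 and 0.69. The 3 near the middle, 4.08 to 4.39 kb from it, differed by 0.40, 0.43 and 0.78. The 5 probes at the 3′ end, 6.81 to 6.93 kb from the 5′ end, differed by 0.03 to 0.39. The gene's own probe thus lies in the stretch with the smallest differences, and it was the lowest of the 11. On the opposite strand 3 probes differed by 0.06, 0.41 and 0.55. The probes of Malat1 and Neat1 lie 46.9 kb apart on the same strand, and Frmd8os, beyond Neat1, differed by -0.28 at a dim level (6.74 to 6.46).

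**Figure D2:**
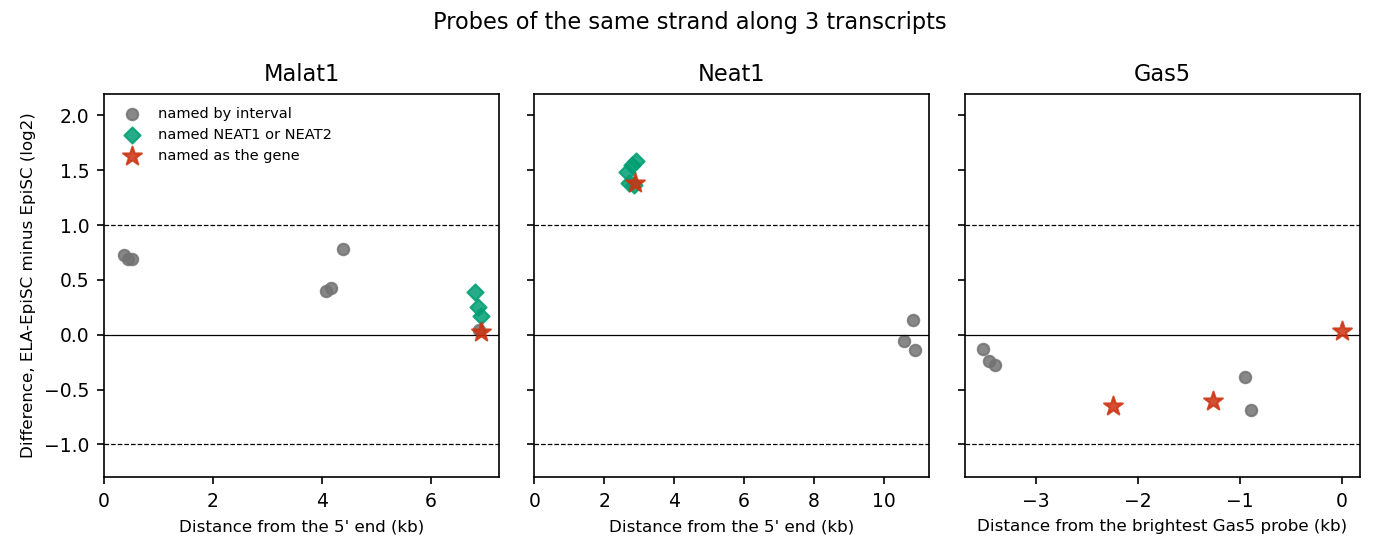
Difference (log2 ELA-EpiSC minus EpiSC) of every same-strand probe along Malat1, Neat1 and Gas5 by distance (kb) from the 5′ end of the array's interval or, for Gas5, from the probe at its 3′ end; stars carry the gene's name, diamonds the names NEAT1 or NEAT2, grey points an interval only, and dashed lines mark 1 and -1. Malat1 differences run from 0.03 to 0.78, the first Neat1 stretch lies between 1.36 and 1.58 and the far one between -0.13 and 0.13, and 7 of 8 Gas5 probes lie below 0 (3 of 8 with scaling on spike-in RNAs).

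Snhg1 hosts several box C/D snoRNAs, U22 among them. Its only probe read 3402 (SD 342 over 44 pixels) in EpiSC and 11286 (SD 1077 over 47 pixels) in ELA-EpiSC. The normalized level went from 11.89 to 13.35, a difference of 1.46, or 2.75-fold. In the main processing it was the largest difference toward ELA-EpiSC among the 7 genes, and 355 of all genes had a larger one. The order turned with the scanner's processed signal scaled to the 75th percentile, where Neat1 differed by 1.48 and Snhg1 by 1.33. Its neighbours by probe position were Slc3a2, which encodes the heavy chain of several amino acid transporters, and Wdr74, a factor of ribosome assembly. Slc3a2, 16.7 kb away on the other strand, differed by 1.10 (15.07 to 16.16), and Wdr74, 13.6 kb away on the same strand, by 0.10 (12.63 to 12.73). Of the pair, Slc3a2 was past 1 in the direction of Snhg1 and Wdr74 stayed at the spot SD.

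Snhg3 hosts the H/ACA snoRNA U17, which takes part in the cutting of ribosomal RNA precursors. In the main processing it was the member with the largest difference, toward EpiSC. Its probe read 5155 (SD 581 over 47 pixels) in EpiSC and 1772 (SD 240 over 47 pixels) in ELA-EpiSC. The normalized level went from 12.48 to 10.67, a difference of -1.81, or 3.51-fold higher in EpiSC, and 209 of all genes had a larger difference toward EpiSC. A same-strand interval probe 0.21 kb farther along read 8.72 in EpiSC against 8.49 in ELA-EpiSC, which is -0.23. An opposite-strand probe 1.53 kb upstream differed by -0.60 and another, 0.63 kb upstream, by -0.19. All 4 probes of this locus were lower in ELA-EpiSC (2 of the 4 with scaling on spike-in RNAs), and the Snhg3 probe alone was past 1. The neighbouring protein-coding genes on the same strand stayed within 1. Rcc1, the nucleotide exchange factor of Ran, differed by 0.26 and Phactr4, a regulator of protein phosphatase 1, by -0.15.

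Snhg12 lies 41.1 kb from Snhg3 on the opposite strand of chromosome 4 and differed the other way. Its mapped probe read 4928 (SD 813 over 46 pixels) in EpiSC and 10894 (SD 1705 over 42 pixels) in ELA-EpiSC. The normalized level went from 12.42 to 13.29, a difference of 0.87, or 1.83-fold, just inside the threshold. The second Snhg12 probe has no coordinates in the array files, and neither array had it well above background. The nearest genes, Trnau1ap (0.8 kb away), which binds the selenocysteine tRNA, and Rab42 (8.5 kb away), differed by -0.37 and 0.51. Trnau1ap was bright (14.02 to 13.65), and Rab42 was dim (6.78 to 7.29), below the level required.

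Snhg11, a host gene known mainly from neurons, was lower in ELA-EpiSC at its brighter probe. This probe, at chr2:158211554-158211613 and from base 5536 of the transcript, read 1224 (SD 180 over 44 pixels) in EpiSC and 1031 (SD 152 over 43 pixels) in ELA-EpiSC. The normalized level went from 10.45 to 9.91, a difference of -0.54. The other probe, from base 577, read 7.71 and 7.62, a difference of -0.09 that is within the spot SD. The difference of Snhg11 thus rests on 1 of its 2 probes. The neighbour on the other strand, 21.5 kb away, is named 9430008C03Rik on the array and is Snhg17, also a snoRNA host. It went from 9.90 to 11.57, a difference of 1.67 opposite to that of Snhg11. Ralgapb, 113.4 kb away on the same strand, differed by 0.23.

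Gas5 hosts box C/D snoRNAs in most of its introns. The probe at the 3′ end (from base 2493) read 11969 (SD 1266 over 43 pixels) in EpiSC and 14228 (SD 1565 over 44 pixels) in ELA-EpiSC. Its normalized level was 13.66 in EpiSC against 13.70 in ELA-EpiSC, and the difference of 0.04 is within the spot SD. The probe from base 2053 read 11.09 and 10.48, a difference of -0.60, and the probe from base 1072 read 9.66 and 9.01, a difference of -0.65. Both of these were lower in ELA-EpiSC by over 5 times the spot SD, so the 3 probes did not give 1 value for the gene. With scaling on spike-in RNAs the probes from bases 2053 and 1072 differed by -0.07 and -0.11, and the 3′ probe by 0.57. The gene value, taken from the brightest probe, is the one that did not move in the main processing. Another 5 same-strand interval probes in and beside the gene differed by -0.68 to -0.13. Some were dim, with levels from 6.80 to 9.45 in EpiSC and from 6.53 to 8.77 in ELA-EpiSC. Of the 8 same-strand probes, 7 were lower in ELA-EpiSC (3 of 8 with scaling on spike-in RNAs), none past 1, and the median was -0.33. Zbtb37, the neighbour 17.0 kb away on the other strand, differed by 0.02.

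**Figure D3:**
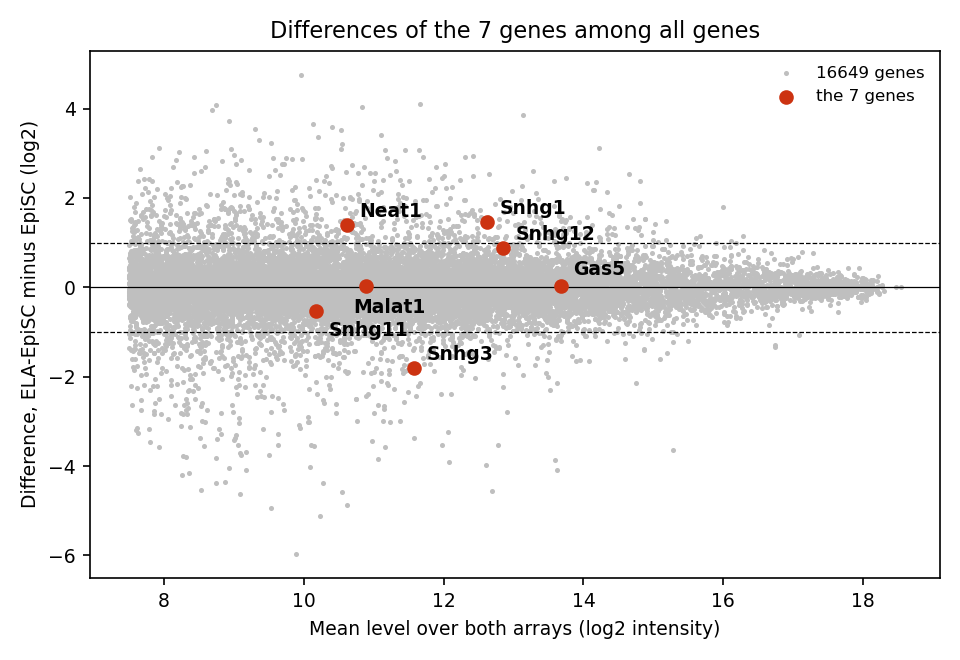
Difference (log2 ELA-EpiSC minus EpiSC) against the mean level over both arrays (log2 intensity) for 16649 genes in grey, with the 7 genes in red; dashed lines mark 1 and -1. Neat1 (1.39) and Snhg1 (1.46) lie above the upper line, Snhg3 (-1.81) lies below the lower one, and Malat1 (0.03) and Gas5 (0.04) lie at 0.

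The signs of Neat1, Snhg1 and Snhg3, and their place past 1, held in all 14 alternative ways of processing that give a value per gene. Neat1 ranged from 1.32 to 1.92, Snhg1 from 1.33 to 2.00 and Snhg3 from -1.84 to -1.28. Malat1 ranged from 0.02 to 0.56 and Snhg11 from -0.66 to -0.0019. Snhg12 ranged from 0.48, when its probes were averaged, to 1.41, and was past 1 in 2 of the 14. Gas5 ranged from -0.40 to 0.57 and kept its sign in 9 of 14. The upper ends came from scaling on the spike-in RNAs added at labelling. The 8 detected spike-in probes all read lower for ELA-EpiSC, by 0.54 on average, so this scaling adds 0.54 to every difference.

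**Figure D4:**
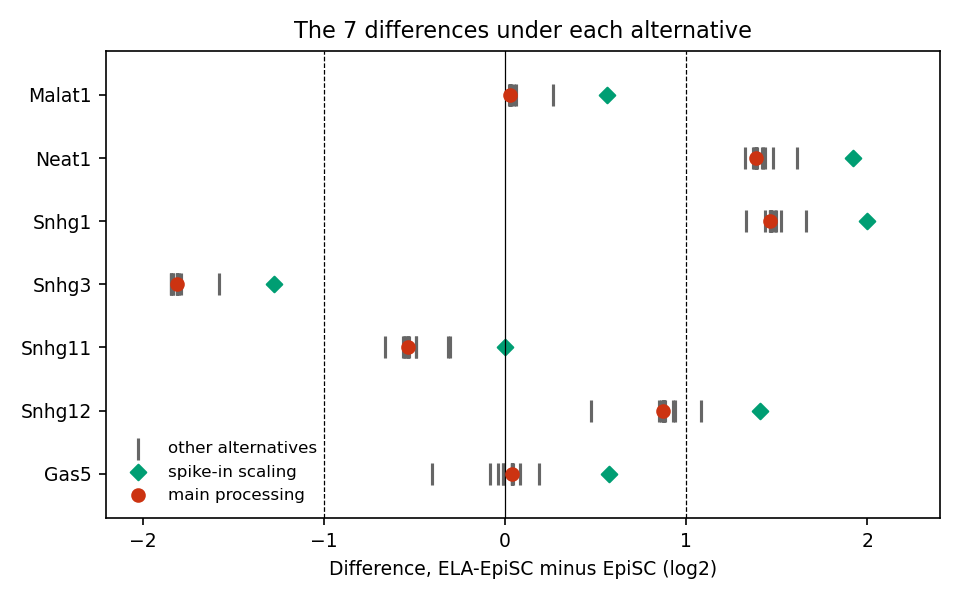
Difference (log2 ELA-EpiSC minus EpiSC) of each of the 7 genes under the main processing (red circle), under scaling on spike-in RNAs (green diamond) and under the other alternatives (grey bars); dashed lines mark 1 and -1. Neat1, Snhg1 and Snhg3 stay outside the lines in all 14 alternatives, and Gas5 lies on both sides of 0.

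Among other long non-coding snoRNA host genes, 10 of 16 listed were measured at the level required. Of these, 1 was past 1 higher in ELA-EpiSC (Snhg17, 1.67) and 1 past 1 higher in EpiSC (Snhg18, -1.65, from 9.82 to 8.17), with a median of 0.19 beside 0.0014 over all genes. Within 1 lay Dancr (-0.96), an RNA first described for holding back differentiation, Zfas1 (0.77), Snhg5 (0.75) and Snhg6 (-0.70). As among the 5 member hosts, values lay on both sides of 0. Snhg8 was not well above background.

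Among 7 measured of 16 other nuclear or chromatin-bound long RNAs, none was past 1 higher in ELA-EpiSC and 1 was past 1 higher in EpiSC, with a median of 0.09. This was Airn, the antisense RNA that silences the paternal Igf2r domain, at -2.01 (11.40 to 9.39), and its detected probes ran from there to -0.84. Meg3 (-0.11), an imprinted RNA of chromosome 12, and Tug1 (0.09) were near 0 at their brightest probes. The detected Tug1 probes ran from -0.38 to 0.09, and those of Meg3 from -0.18 to -0.05. The highest was Mirg (0.50), whose 3 probes ran from -0.77 to 0.50 and gave -0.32 when probes were averaged. Xist, the RNA of X inactivation, was not detected above background by either array.

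At their brightest detected probes, none of the protein genes tied to these RNAs was past 1 on either side. With scaling on spike-in RNAs some were, such as Taf15 (1.11). The 15 paraspeckle proteins ran from Nudt21 (-0.47), a cleavage factor, to Taf15 (0.58), with a median of 0.12. The core paraspeckle proteins Nono, Sfpq and Pspc1 differed by 0.12, 0.01 and 0.36, beside 1.39 for Neat1. The 11 nuclear speckle proteins ran from the splicing factor Srsf2 (-0.50) to Sf3b1 (0.29), with a median of -0.15 and 8 of 11 lower in ELA-EpiSC (0 of 11 with scaling on spike-in RNAs).

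The 8 measured core proteins of box C/D and H/ACA particles had a median of 0.20, from Nop10 (-0.39), an H/ACA protein, to Nop58 (0.65), a C/D protein. Fibrillarin (Fbl), the methyltransferase of C/D particles, differed by 0.25, and Dkc1, the pseudouridine synthase of H/ACA particles, by 0.14. The 10 assembly factors had a median of -0.09, from Znhit3 (-0.48) to Znhit6 (0.43). Among 11 protein-coding genes that host snoRNAs, the median was -0.08, from the chaperone Hspa8 (-0.23) to nucleolin, Ncl (0.67). These are values of the brightest probe. The detected Hspa8 probes ran from -1.39 to -0.23, and those of Ncl from 0.28 to 0.67.

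The 10 factors of nonsense-mediated decay had a median of 0.39, the highest of the 8 lists, and 9 of 10 were higher in ELA-EpiSC. The lowest was Smg8 (-0.28), and Upf1, the helicase of the pathway, differed by 0.62.

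**Figure D5:**
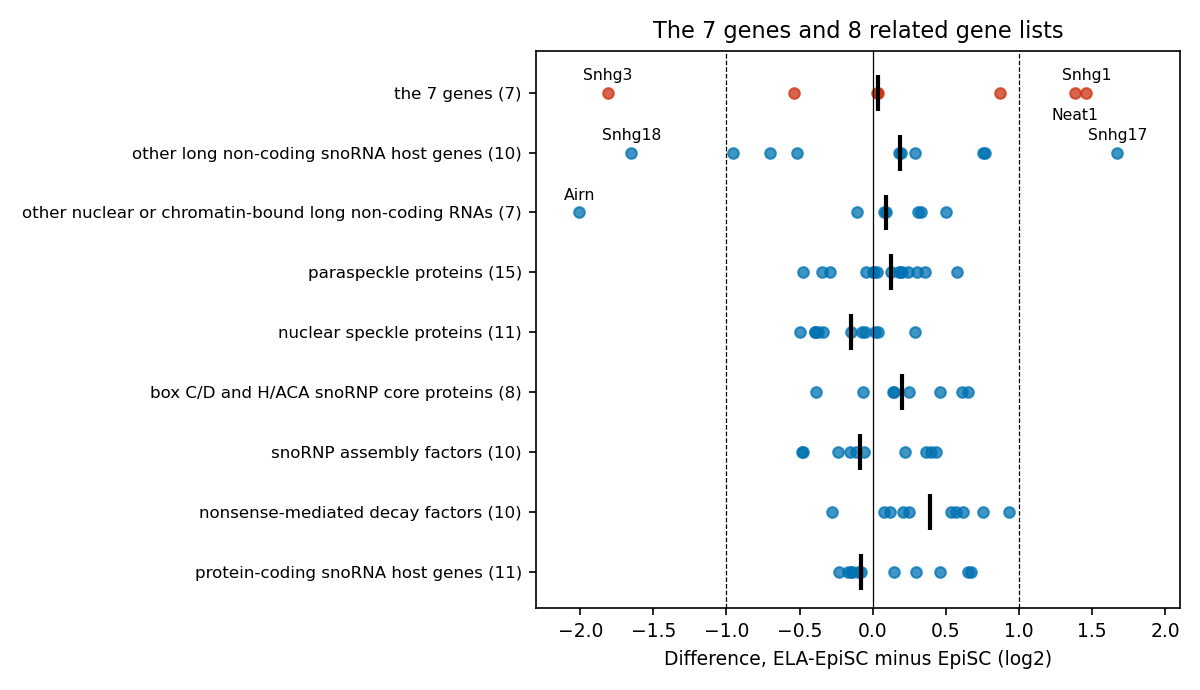
Difference (log2 ELA-EpiSC minus EpiSC) of the 7 genes and of the measured members of 8 gene lists, 1 point per gene with the number of genes in brackets; black bars are medians and dashed lines mark 1 and -1. In the main processing Snhg17, Snhg18 and Airn are the listed genes past 1, beside Neat1, Snhg1 and Snhg3.

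The cell type named by the titles was checked with marker genes. All 11 markers of the primed epiblast were well above background on both arrays, among them Pou5f1 (14.27 in EpiSC, 14.46 in ELA-EpiSC), Otx2 (15.86, 15.86) and Fgf5 (15.19, 15.34), and 2 were past 1 higher in ELA-EpiSC, Zic2 (1.68) and Pou3f1 (1.46). Of the 11, 8 read higher in ELA-EpiSC and 3 lower, Dnmt3b (-0.84), Sall2 (-0.45) and Sox2 (-0.27). The detected Dnmt3b probes ran from -1.11 to -0.84. With scaling on spike-in RNAs Dnmt3b (-0.30) stayed lower, while Sall2 (0.08) and Sox2 (0.26) read higher. The summed normalized intensity of the list was 303901 in EpiSC and 279153 in ELA-EpiSC. Dnmt3b led this sum, and without it the order turned, with 166120 in EpiSC and 201957 in ELA-EpiSC. Of 5 measured visceral endoderm markers, 3 were past 1 higher in EpiSC, Hnf4a (-5.12), Ttr (-3.47) and Amn (-2.75). Ttr was not well above background in ELA-EpiSC, and its difference ran from -7.54 to -2.93 over the alternatives. Apoa1 (-2.02), below the level required, was also not well above background in ELA-EpiSC. Afp was dim in both (6.26 and 6.47). The summed normalized intensity of all 8 on that list was 9957 in EpiSC and 1485 in ELA-EpiSC. Without Hnf4a these sums were 2890 and 1282, and 4 of the 8, Afp, Cubn (0.11), Dab2 (0.20) and Apob (0.55), read higher in ELA-EpiSC. Among 4 neural markers Nefl (2.18) was past 1, among 4 fibroblast markers Col1a1 (3.72), and among 4 trophoblast markers Tfap2c (1.16) and Elf5 (-1.48). The summed intensity of the 5 detected neural markers was 10048 in EpiSC and 40715 in ELA-EpiSC, mostly from Nefl, without which it was 1500 and 1933. Elavl3 (-0.68) and Sox1 (-0.09) of that list read lower in ELA-EpiSC. The sum was 3888 and 6127 for the 6 fibroblast markers, and all 6 read higher in ELA-EpiSC. Of these, Col3a1 (1.88, from 6.52 to 8.39) was just below the level required. Thy1 (0.05) and Col1a2 (0.08) were within the spot SD. For the 5 trophoblast markers the sum was 3666 and 4643, and 2316 and 1631 without Tfap2c. Pax6 was not well above background. These markers were read on the same 2 arrays as Neat1, Snhg1 and Snhg3, and their part in those genes' differences was not tested.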

How the data were processed

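Total RNA of EpiSC and ELA-EpiSC was measured on 1 Agilent SurePrint G3 array each. The authors deposited spot intensity on a linear scale, not normalized, made per the file headers with Feature Extraction 10.7.3.1, while the submitters' processing notes name version 9.1 and limma. A table of log2 values deposited by the authors, background-corrected and quantile normalized by them, served as an alternative. Both arrays lay on 1 slide in 1 scan.

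Mean spot intensity was corrected with normexp (offset 50, local background, limma 3.58.1, R 4.3.3). Control spots and spots flagged as outliers (158 and 117) were left out, arrays were quantile normalized, and log2 values of a probe's spots were averaged. Detection of a probe required the well-above-background flag on a share of 0.5 or more of its spots. A gene took its brightest detected probe by mean log2. The normalization was tested on simulated data. Quantile normalization hides shifts shared by all genes, and the offset compresses dim differences.

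The members and the gene lists were chosen with earlier results of these data known. Named genes are the members, their neighbours on either side, and the listed genes past 1 or lowest and highest of a list; a few further listed genes are named for their role, after their values were seen. Same-strand probes under other names were found by mm9 position within 1 RefSeq gene length of a member probe. No genome of that build was used here. Some listed or neighbouring genes and some probe sequences are not reported here.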

Additional observations from a re-analysis of the deposited data

How the results depend on the processing

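The counts of 2 and 1 member genes past 1 were the same in 13 of 17 alternatives. They were 3 and 1, Snhg12 being added, with median scaling, with spike-in scaling and at a threshold of 1.5-fold, where 22.0% of all genes were past it. At a threshold of 2.5 they were 0 and 0, and 1.05% of all genes were past it. The median of the 7 genes, 0.04, was 0.26 with scaling to each array's median and 0.57 with spike-in scaling, which also put 16.7% of all genes past 1. Genes higher in ELA-EpiSC were 50.5% of those past 1 in the main processing, 68.3% with median scaling and 89.0% with spike-in scaling, where the median of all genes moved by 0.15 and 0.54. Scaling to the 75th percentile moved it by up to -0.08. Gas5 was the only member whose sign changed, in 5 of 14 alternatives, the lowest value being -0.40 when its 3 probes were averaged. Precision is limited by 1 spot per member probe and 1 array per group. No paired analysis was possible because there is a single array per group, and no replicate could be left out.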

Other observations

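The array also holds 8 detected genes of small non-coding RNAs, chosen after their values were seen. Of the 8, 6 were lower in ELA-EpiSC, or 3 of 8 with scaling on spike-in RNAs. Past 1 were Rnu1b6, a U1 spliceosomal RNA gene (14.91 in EpiSC, 13.26 in ELA-EpiSC, -1.65), Rnu3b1, a gene of the U3 snoRNA (10.81, 9.67, -1.14), and Rnu2-10, a U2 gene (10.27, 9.14, -1.12). Over the alternatives these ran from -1.81 to -1.12, from -1.22 to -0.60 and from -1.27 to -0.59. Rnu12, the U12 RNA of the minor spliceosome, differed by -0.43 and Rmrp, the RNA of RNase MRP, by -0.31. Terc, the telomerase RNA, differed by -0.25 at a level of 7.31 in EpiSC. The snoRNA genes Snora47 and Snora74a differed by 0.13 and 0.18. Each of these genes has 1 probe, and U1, U2 and U3 have many near-identical copies, so the copy that gave the signal is uncertain. Whether the signals come from the mature small RNAs or from longer transcripts that hold their sequence was not tested. The differences are thus not a measure of the mature small RNAs.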
